A study of Homo sapiens with 6 samples.

Results

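Protein phosphatases remove phosphate from serine, threonine or tyrosine residues and so reverse the action of kinases. The serine/threonine enzymes of the PPP family, such as PP1 and PP2A, work as a small catalytic subunit joined to one of many regulatory subunits that choose its substrates, whereas PPM1 enzymes act alone. Tyrosine phosphatases and dual-specificity phosphatases share a cysteine-based catalytic site, and a branch of the latter, the MAP kinase phosphatases, inactivates ERK, JNK and p38, the kinases that relay growth and stress signals in blood cells. Their mRNAs were followed in ME-1, a human leukaemia cell line with inv(16), in which the drug AI-10-49 targets the fusion protein CBFβ-SMMHC.

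The rows described here carry a single gene symbol that starts with PPP and a digit, PPM1, PTPN, PTPR, PTP4A, DUSP or CDC14, without PPP1R15A. There were 66 such rows of 6339 in the deposited table, 40 for serine/threonine phosphatases and their subunits, 11 for tyrosine phosphatases and 15 for dual-specificity phosphatases (DUSP, PTP4A and CDC14). PPP4R1L is a pseudogene in RefSeq, and DUSP27 could not be assigned to a single RefSeq gene. Of 157 protein-coding RefSeq genes whose symbol fits the rule, 64 (40.8%) had a row of their own, against 29.1% of all protein-coding genes. The other family genes, among them DUSP2, DUSP4, PTPN1, PTPN6, PTPN11, PPP1CA and PPP2CA, were not analysed here.

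The 2 groups were ME-1 cells given the solvent DMSO and ME-1 cells given AI-10-49 at 1 µM, both for 6 h, with 3 numbered replicates each. Both carry the inversion, and a single cell line was studied. Nothing in the labels says that the replicates came from separate cultures, so p-values measure only the spread between these libraries, which may be technical. Levels are FPKM, fragments per length of transcript and per fragments mapped in the library, which allow genes to be compared per length. The sequencing depth is unknown. Changes are log2 fold changes of FPKM + 1, AI-10-49 minus DMSO, from a limma fit over all 6230 rows that reached a mean of 1 FPKM in either group. A row was called when its Benjamini-Hochberg adjusted p from limma was under 0.05. RNA was taken from cells in bulk, so fewer cells with a transcript and less of it in each cell cannot be told apart.

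Nearly every row of the deposited table differed between the groups, and 95.3% of all tested rows were called. The sources used here do not say how the rows were selected. If they were selected for differing between these same groups, a call adds little, and this was not tested. Of 13 myeloid marker genes, 8 had a row, and their summed level was 414 to 460 FPKM with DMSO and 193 to 280 FPKM with AI-10-49. The low end of the AI-10-49 range was replicate 2, in which SPI1 read 73.4 FPKM, against 137 and 133 FPKM in replicates 1 and 3. Lymphoid (4 of 7 with a row), erythroid (1 of 4) and endothelial or fibroblast markers (2 of 6) summed to 58.7 to 63.9, 8.76 to 9.60 and 15.5 to 18.7 FPKM with DMSO, and to 25.6 to 27.5, 3.28 to 4.0 and 4.23 to 4.90 FPKM with AI-10-49. Their part in the results was not tested. AI-10-49 replicate 2 stood apart, because its abundant rows read low and its scarce rows mostly read slightly high. Over all rows its highest value was 159 FPKM, against 1843 and 1877 FPKM in AI-10-49 replicates 1 and 3. Phosphatase rows were grouped by their mean in the other AI-10-49 libraries. From 50 to 100 FPKM replicate 2 was the lowest in 10 of 10, with a median of 0.708 of that mean. From 20 to 50 FPKM it was the lowest in 16 of 18 (median 0.895). Under 20 FPKM it was the lowest in 3 and the highest in 22 of 37 (median 1.06). Values without this library are therefore given for the 11 members that averaged 50 FPKM or more in the other AI-10-49 libraries.

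**Figure D1:**
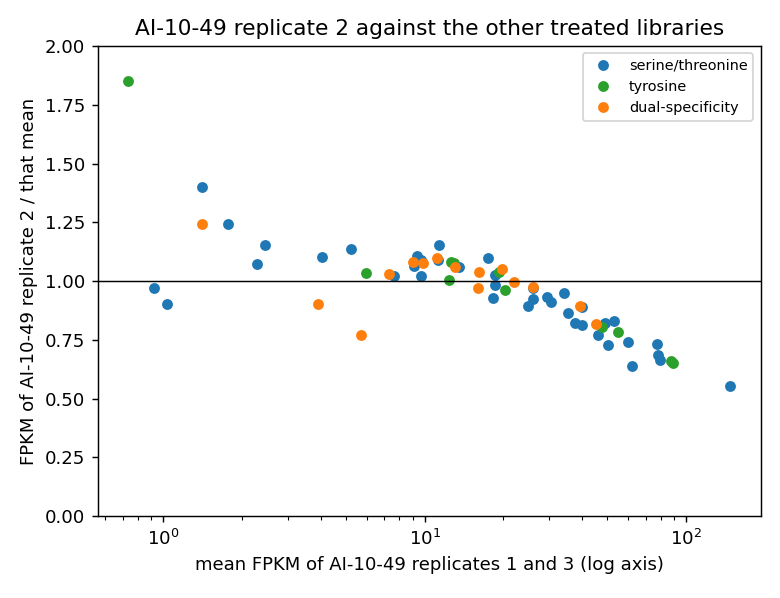
FPKM of AI-10-49 replicate 2 divided by the mean of AI-10-49 replicates 1 and 3 (vertical axis) against that mean in FPKM (horizontal log axis), 1 point per phosphatase row, coloured by class, with a line at equality. The median is 1.06 below 20 FPKM, 0.895 from 20 to 50 FPKM and 0.708 between 50 and 100 FPKM.

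Phosphatase mRNAs moved in both directions after AI-10-49. Of the 66 rows 64 were tested, and 43 of them were higher, 20 were lower and 1, PPP1R3B, did not pass. The share called was 98.4%, near the 95.3% of the table, so the number of calls is no result about phosphatases. The members split into 67.2% higher and 31.2% lower, and all tested rows into 46.2% higher and 49.1% lower. Their median log2 fold change was 0.35, against -0.28 over all tested rows. Under quantile normalization these medians were 0.35 and -0.06, and 0.36 and -0.03 when AI-10-49 replicate 2 was also left out. PTPRH and PPP1R3G stayed under the minimum in both groups and were not tested. PPP1R32, PPP1R3F, DUSP19 and PPP4R1L reached it only with AI-10-49, so that these could only be called as higher.

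The 3 classes had similar medians and unequal shares of large changes. The median was 0.33 for the 39 tested serine/threonine rows (27 higher, 11 lower), 0.33 for the 10 tyrosine rows (6 higher, 4 lower) and 0.37 for the 15 dual-specificity rows (10 higher, 5 lower). A log2 fold change of at least 1 in size was seen in 6 of 15 dual-specificity rows, 2 of 10 tyrosine rows and 5 of 39 serine/threonine rows, against 13.4% of all tested rows. Of these 6 dual-specificity rows, 5 are MAP kinase phosphatases. Regardless of direction, the median size of change was 0.57 (serine/threonine), 0.51 (tyrosine) and 0.59 (dual-specificity), against 0.56 over all tested rows. Genes are not replicates, and no test was made between the classes. Groups did not overlap in 61 of the 64 rows (95.3%), where 96.2% of all tested rows did not. PPP1R35, PPP2CB and PPP4R2 were the rows in which they did.

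**Figure D2:**
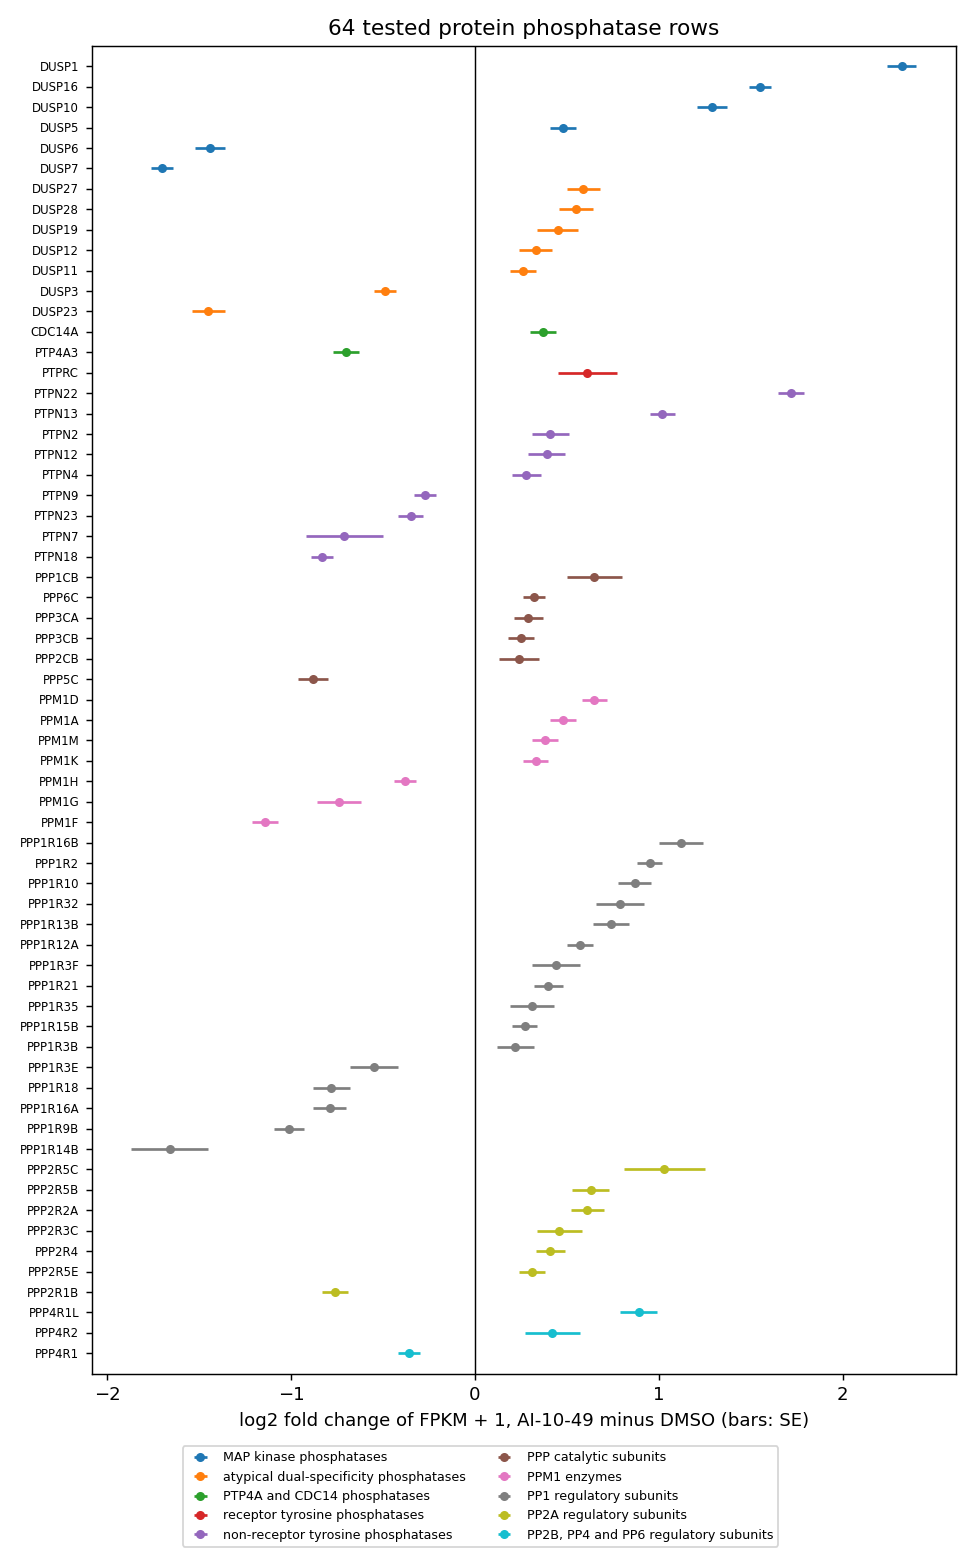
Log2 fold change of FPKM + 1 (horizontal axis, AI-10-49 minus DMSO, bars show the SE from limma) of the 64 tested phosphatase rows, grouped by role. DUSP1 (2.32) and DUSP7 (-1.70), both MAP kinase phosphatases, are the extremes.

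The MAP kinase phosphatases changed places. All 6 with a row were called, and DUSP1, DUSP16, DUSP10 and DUSP5 rose while DUSP7 and DUSP6 fell. DUSP1 is an immediate early gene whose nuclear product acts on JNK, p38 and ERK. It read 2.28, 2.34 and 2.85 FPKM in the DMSO libraries and 15.6, 16.8 and 16.7 FPKM in the AI-10-49 libraries. Each treated library lay far above each control. The ratio of the means was 6.58-fold, the largest rise among the tested member rows (log2 fold change 2.32 ± 0.08 SE, limma adjusted p = 8.82e-11). For DUSP1, permuting the labels of the libraries (exact, two-sided) gave p = 0.10, the smallest that 3 against 3 allows.

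DUSP16 and DUSP10 encode phosphatases with a preference for JNK and p38 over ERK. DUSP16 stood at 6.31, 6.09 and 6.30 FPKM with DMSO and at 19.9, 20.8 and 19.6 FPKM with AI-10-49 (log2 fold change 1.55 ± 0.06 SE, limma adjusted p = 2.88e-10). DUSP10 went from 14, 14.2 and 16.3 to 37.0, 35.1 and 41.5 FPKM (1.29 ± 0.08 SE, limma adjusted p = 1.72e-08). In both genes all treated libraries lay well above all controls. DUSP5, a nuclear ERK phosphatase, rose less, from 6.72, 6.49 and 5.91 to 9.16, 9.73 and 8.87 FPKM (0.48 ± 0.07 SE, limma adjusted p = 3.90e-05).

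The genes that fell encode the cytosolic phosphatases that act on ERK. DUSP7 measured 25.2, 26.5 and 26.5 FPKM with DMSO and 7.22, 7.49 and 7.35 FPKM with AI-10-49. This was 3.55-fold lower and the largest fall among the tested member rows (-1.70 ± 0.06 SE, limma adjusted p = 1.16e-10). DUSP6, a gene that ERK signalling itself is known to induce, went from 60.5, 60.5 and 63.5 to 22.7, 21.9 and 21.3 FPKM (-1.44 ± 0.08 SE, limma adjusted p = 3.76e-09). The libraries within each group differed little and the groups lay wide apart. An antisense gene covers 40.5% of the DUSP6 exon bases in GENCODE release 29, and the sources used here do not say whether the counting used strand, so reads of the pair cannot be told apart.

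The summed level of these 6 genes overlapped between the groups, while their order differed. No test was made on the sums. It was 115, 116 and 121 FPKM with DMSO and 112, 112 and 115 FPKM with AI-10-49. DUSP6 and DUSP7 together went from 87.6 ± 2.12 to 29.3 ± 0.643 FPKM (SD, n = 3). DUSP10 and DUSP16 went from 21.1 ± 1.29 to 58.0 ± 2.79 FPKM, and DUSP1 and DUSP5 from 8.86 ± 0.122 to 25.6 ± 0.847 FPKM (SD, n = 3). In every DMSO library DUSP6 was the most abundant of the 6, followed by DUSP7 and DUSP10, and DUSP1 was the least. DUSP5 and DUSP16 overlapped there. In every AI-10-49 library the order was DUSP10, DUSP6, DUSP16, DUSP1, DUSP5 and DUSP7, with no overlap between neighbours. The ratio of DUSP10 to DUSP6 within a library, which does not depend on scaling between libraries, was 0.232, 0.235 and 0.257 with DMSO and 1.63, 1.60 and 1.95 with AI-10-49.

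**Figure D3:**
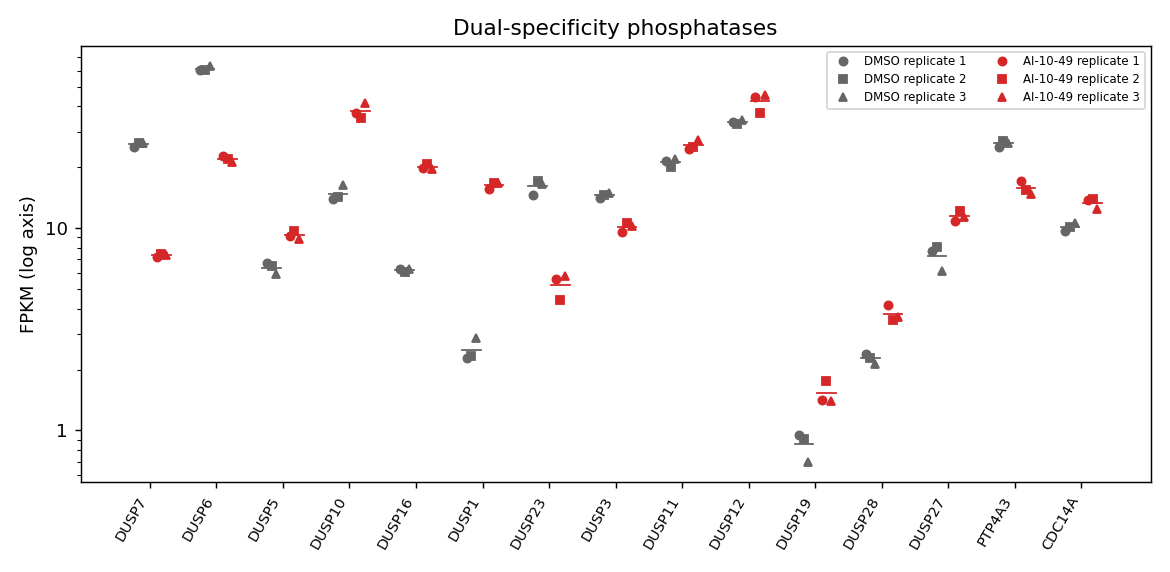
FPKM (vertical log axis) of the 15 dual-specificity phosphatase rows in each DMSO (grey) and AI-10-49 (red) library, with marker shapes for replicates and horizontal lines for group means. DUSP6 and DUSP7 drop to means of 22.0 and 7.35 FPKM, below DUSP10 at 37.9 FPKM, and the groups do not overlap in any of the 15.

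The stretch before the DUSP1 start site is shown because DUSP1 rose most and because it holds several of the motifs searched. RefSeq promoters (GRCh38.p14) were matched for 51 of the 66 members, and the 250 bases before the first listed start were searched on both strands. The motifs were TGACGTC (most of a cAMP response element), TGANTCA (AP-1), CACGTG (an E-box), TGTGGT (the core bound by RUNX proteins) and the CArG box bound by SRF. Over all 27167 promoters of this length, 3.27%, 6.61%, 6.46%, 10.9% and 1.15% hold them, and 5.88%, 1.96%, 3.92%, 9.80% and 1.96% of the member promoters do. Among promoters of all rows called higher, the shares in this order are 6.42%, 3.85%, 8.81%, 7.75% and 0.886%. For all rows called lower they are 3.86%, 2.81%, 11.1%, 7.32% and 0.833%. Capitals in the DUSP1 sequence (chr5:172771196-172771445, minus strand, printed 5′ to 3′ along the gene) mark TGACGTC, once alone and once read on both strands at overlapping places, and CACGTG. The overlapping form occurs in 1.75% of all promoters. A match is a description of letters and not a measured site. The windows of DUSP6, DUSP7, DUSP10 and DUSP16 held none of the 5 motifs.
DUSP1: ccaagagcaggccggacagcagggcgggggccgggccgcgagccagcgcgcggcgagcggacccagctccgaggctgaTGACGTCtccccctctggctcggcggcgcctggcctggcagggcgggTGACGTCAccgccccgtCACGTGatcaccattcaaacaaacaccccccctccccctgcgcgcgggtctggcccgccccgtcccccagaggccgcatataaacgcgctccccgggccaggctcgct

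Among the other dual-specificity phosphatases 6 of 9 rose and 3 fell. DUSP23, a small atypical phosphatase, fell most, from 14.5, 17.1 and 16.6 FPKM with DMSO to 5.61, 4.39 and 5.79 FPKM with AI-10-49 (-1.45 ± 0.09 SE, limma adjusted p = 2.13e-08). Its highest treated library lay below its lowest control. DUSP3, which can act on ERK and JNK, fell from 14.1, 14.5 and 15.0 to 9.52, 10.6 and 10.2 FPKM (-0.49). PTP4A3, a membrane-anchored phosphatase linked to cell migration, fell from 25.3, 27.1 and 26.3 to 17.1, 15.5 and 14.8 FPKM (-0.70). CDC14A, a relative of the yeast mitotic exit phosphatase, rose from 9.68, 10.1 and 10.6 to 13.7, 13.9 and 12.5 FPKM (0.37). In none of these did the groups overlap. DUSP27 rose from 7.72, 8.04 and 6.12 to 10.9, 12.2 and 11.3 FPKM (0.59). DUSP28 and DUSP19, both scarce, rose from 2.39, 2.28 and 2.14 to 4.17, 3.53 and 3.65 FPKM (0.55) and from 0.946, 0.912 and 0.699 to 1.42, 1.75 and 1.40 FPKM (0.45). DUSP12 (0.33) and DUSP11 (0.26) rose least. DUSP11 acts on RNA rather than on protein, and DUSP28 shares 12.5% of its exon bases with ANKMY1 on the opposite strand. DUSP19 gave 0.77 with a pseudocount of 0.1.

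Among tyrosine phosphatases 6 of 10 tested rows rose and 4 fell, and PTPN22 had the largest change. PTPN22 encodes a phosphatase that restrains antigen receptor signalling in lymphocytes. It read 5.39, 5.0 and 5.18 FPKM with DMSO and 17.5, 20 and 21.0 FPKM with AI-10-49, 3.75-fold higher (1.72 ± 0.07 SE, limma adjusted p = 6.36e-10). PTPN13, a large cytosolic phosphatase with PDZ domains, went from 6.0, 5.86 and 5.82 to 12.9, 13.7 and 12.4 FPKM (1.02 ± 0.07 SE, limma adjusted p = 2.05e-08). In both genes the treated libraries lay above the controls by a wide margin. PTPN2, which acts on JAK kinases and STAT proteins, rose from 37.2, 37.9 and 38.0 to 54.2, 42.9 and 55.4 FPKM (0.41 ± 0.10 SE). It gave 0.53 without AI-10-49 replicate 2. PTPN12 (0.39) and PTPN4 (0.28) rose as well.

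PTPN18, which dephosphorylates receptor tyrosine kinases of the HER2 type, fell from 23.6, 25.0 and 24.7 to 13.2, 14 and 12.8 FPKM (-0.83 ± 0.06 SE, limma adjusted p = 9.66e-08). PTPN7, a phosphatase of blood cells that binds ERK and p38, had the highest mean of the tyrosine phosphatase rows in the control cells. It measured 123, 123 and 128 FPKM with DMSO and 88.8, 57.5 and 85.4 FPKM with AI-10-49 (-0.71 ± 0.21 SE, limma adjusted p = 0.00553). The groups did not overlap, but the size of the fall leaned on AI-10-49 replicate 2. Without that library the value was -0.51, and it was -0.24 under quantile normalization (limma adjusted p = 0.00166). PTPN23 (-0.35) and PTPN9 (-0.27), both tied to membrane traffic, fell slightly.

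PTPRC, which encodes CD45, the main receptor tyrosine phosphatase of white blood cells, rose from 51.6, 48.8 and 50.6 to 85.6, 58.1 and 92.5 FPKM (0.61 ± 0.16 SE, limma adjusted p = 0.00286). Replicate 2 was the lowest treated library and still lay above all controls. Without it the log2 fold change was 0.81, and quantile normalization gave 0.93. PTPRH, the other receptor type with a row, was at 0.368, 0.384 and 0.316 FPKM with DMSO and 0.831, 1.36 and 0.637 FPKM with AI-10-49, and was not tested.

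**Figure D4:**
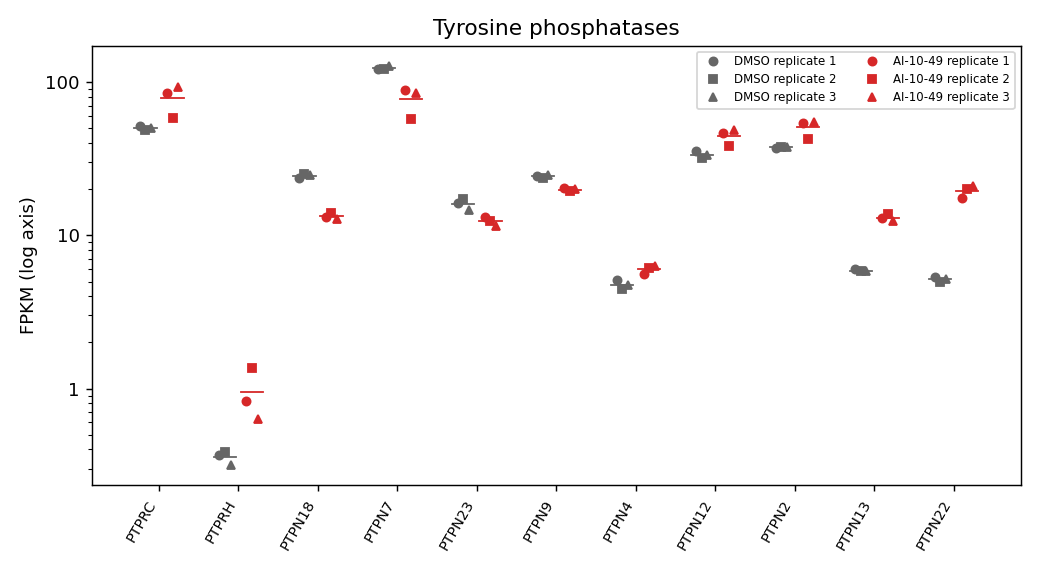
FPKM (vertical log axis) of the 11 tyrosine phosphatase rows in each DMSO (grey) and AI-10-49 (red) library, with marker shapes for replicates and horizontal lines for group means. PTPN22 and PTPN13 rise to means of 19.5 and 13 FPKM, and AI-10-49 replicate 2 (squares) reads low in the abundant genes PTPN7 and PTPRC.

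The window before the PTPN22 start is printed because TGTGGT occurs in it at 3 places, all on the strand opposite to the gene, so that the capitals read as its complement. They lie 210 to 205, 92 to 87 and 36 to 31 bases before the start. At least 3 places are found in 19 of 27167 promoters (0.0699%). This pattern was picked out after the search was made, and no binding was measured in these libraries. The region is chr1:113871713-113871962 of GRCh38.p14, on the minus strand.
PTPN22: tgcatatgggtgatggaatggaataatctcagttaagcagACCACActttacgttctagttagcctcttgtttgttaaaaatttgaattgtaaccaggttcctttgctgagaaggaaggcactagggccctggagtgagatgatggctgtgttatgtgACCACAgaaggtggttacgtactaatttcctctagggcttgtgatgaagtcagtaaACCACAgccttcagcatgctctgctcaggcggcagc

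Of 6 catalytic subunits of the PPP family with a row, 5 were called as higher and 1, PPP5C, as lower. Their log2 fold changes ran from -0.88 to 0.65. PPP5C, whose product works with the chaperone HSP90, went from 43.7, 44.0 and 47.3 to 25.0, 22.3 and 24.8 FPKM (-0.88 ± 0.08 SE, limma adjusted p = 3.52e-07). Its treated libraries lay well below its controls. PPP1CB, a PP1 catalytic subunit, rose from 45.2, 40.7 and 45.3 to 74.0, 52.9 and 84.8 FPKM (0.65 ± 0.15 SE, limma adjusted p = 0.00126), with 0.84 when AI-10-49 replicate 2 was left out and 1.00 when quantile normalization was added. PPP6C rose from 14.4, 13.3 and 14.4 to 18.0, 16.9 and 18.5 FPKM (0.32). The calcineurin subunits PPP3CA and PPP3CB rose from 28.8, 26.2 and 27.2 to 33.8, 30.5 and 36.9 FPKM (0.29) and from 14.9, 14.2 and 15.8 to 16.5, 19.2 and 18.5 FPKM (0.25), with narrow gaps between the groups.

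The PP2A catalytic subunit PPP2CB was at the threshold. It read 35.1, 35.3 and 36.3 FPKM with DMSO and 42.6, 35.4 and 49.5 FPKM with AI-10-49, so that replicate 2 fell among the controls (0.24 ± 0.11 SE, limma adjusted p = 0.0499). The call was lost in 8 of 15 alternatives, among them each single library left out except AI-10-49 replicate 2 (a value of 0.12 and a limma adjusted p of 0.254 when AI-10-49 replicate 3 was left out). Without AI-10-49 replicate 2 the value was 0.36 (limma adjusted p = 4.34e-04).

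PP2A is assembled from a catalytic subunit, a scaffold and a regulatory subunit, and 6 of its 7 regulatory or accessory genes with a row rose. PPP2R5C, a regulatory subunit of the B56 kind, had the highest mean of the phosphatase rows in the treated cells. It was 60.7, 56.4 and 59.5 FPKM with DMSO and 148, 82.0 and 147 FPKM with AI-10-49 (1.03 ± 0.22 SE, limma adjusted p = 6.29e-04), and 1.31 without AI-10-49 replicate 2. PPP2R5B, another B56 subunit, rose from 3.08, 3.79 and 2.74 to 5.29, 5.97 and 5.21 FPKM (0.63 ± 0.10 SE). PPP2R2A, a B55 subunit that acts at mitotic exit, rose from 23.6, 23.2 and 25.5 to 39.2, 32.4 and 40.6 FPKM (0.61 ± 0.09 SE).

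The scaffold gene PPP2R1B fell, unlike the other 6. Its values of 20.3, 20.9 and 21.5 FPKM with DMSO gave way to 11.1, 13.1 and 11.6 FPKM (-0.76 ± 0.07 SE, limma adjusted p = 5.21e-07). PPP2R3C rose from 39.8, 36.1 and 42.0 to 56.7, 44.4 and 62.9 FPKM (0.46 ± 0.12 SE), and gave 0.59 without AI-10-49 replicate 2 and 0.70 when quantile normalization was added to that. PPP2R4, which encodes an activator of PP2A, and PPP2R5E rose by 0.41 and 0.31. Summed over the 7 genes the level was 196 ± 6.88 FPKM with DMSO and 299 ± 53.0 FPKM with AI-10-49 (SD, n = 3), and PPP2R5C made up most of that difference.

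PPM1 enzymes, which need metal ions and no regulatory subunit, went both ways, with 4 higher and 3 lower of 7. PPM1F, a phosphatase of CaM kinases, fell from 22.1, 24.1 and 23.5 to 9.80, 10.6 and 9.62 FPKM (-1.14 ± 0.07 SE, limma adjusted p = 7.60e-09). Its groups lay far apart. PPM1G, which acts on splicing and chromatin proteins, fell from 83.2, 82.2 and 85.7 to 53.6, 43.8 and 52.1 FPKM (-0.74 ± 0.12 SE), a value that was -0.65 without AI-10-49 replicate 2 and -0.42 under quantile normalization. PPM1H fell from 12.6, 12.1 and 12.5 to 9.34, 9.68 and 8.85 FPKM (-0.38). PPM1D, a p53 target whose product WIP1 dampens DNA damage signalling, rose from 7.06, 7.10 and 6.73 to 10.8, 12.2 and 11.6 FPKM (0.65 ± 0.07 SE, limma adjusted p = 1.59e-06). PPM1A rose from 13.9, 12.5 and 12.4 to 18.0, 18.2 and 19.0 FPKM (0.48). PPM1M (0.38) and PPM1K (0.33) rose less. The sum over the 7 genes was 152 ± 1.44 FPKM with DMSO and 117 ± 3.81 FPKM with AI-10-49 (SD, n = 3), since the abundant PPM1G and PPM1F are among those that fell.

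**Figure D5:**
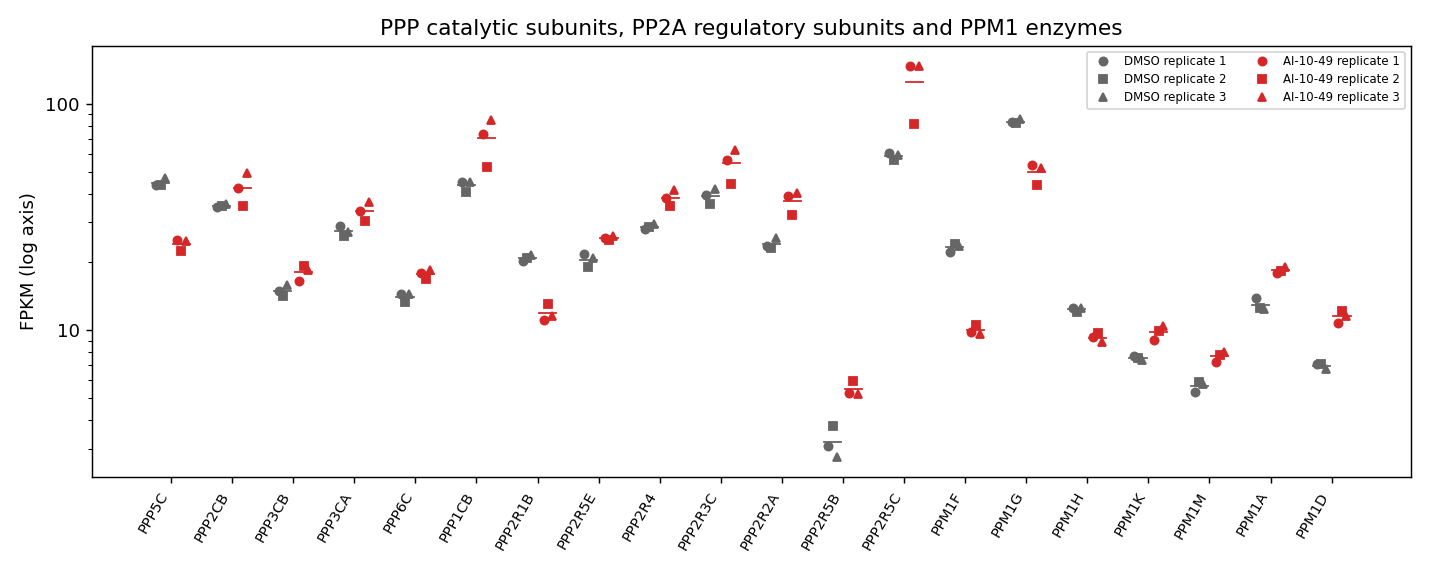
FPKM (vertical log axis) of 6 PPP catalytic subunits, 7 PP2A regulatory genes and 7 PPM1 enzymes in each DMSO (grey) and AI-10-49 (red) library, with marker shapes for replicates and horizontal lines for group means. PPP5C, PPP2R1B and PPM1F lie lower with AI-10-49, PPP2R5C reaches 148 and 147 FPKM in 2 treated libraries and 82.0 FPKM in replicate 2, and PPP2CB overlaps between groups.

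The PPM1D promoter window is given because, of the member windows searched, it alone shares with DUSP1 the overlapping TGACGTC match, which here lies 61 to 54 bases before the start. Capitals also mark TGTGGT, 31 to 26 bases before it. The region is chr17:60599943-60600192 of GRCh38.p14, on the plus strand. PPM1K held TGACGTC once, and PPM1A a CArG box.
PPM1D: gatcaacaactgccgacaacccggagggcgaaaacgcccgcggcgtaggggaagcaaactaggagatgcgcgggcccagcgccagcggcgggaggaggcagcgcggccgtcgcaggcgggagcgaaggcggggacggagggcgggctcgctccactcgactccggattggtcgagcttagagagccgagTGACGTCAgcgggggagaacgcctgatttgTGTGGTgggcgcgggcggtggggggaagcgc

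PP1 regulatory subunits gave 10 higher, 5 lower and 1 not past the threshold among 16 tested rows. PPP1R14B, a phosphorylation-dependent inhibitor of PP1, had the highest mean of the member rows in the control cells. It read 163, 170 and 182 FPKM with DMSO and 63.6, 39.7 and 60.4 FPKM with AI-10-49, 3.14-fold lower (-1.66 ± 0.21 SE, limma adjusted p = 9.03e-06). The value was -1.45 when AI-10-49 replicate 2 was left out, and ran from -1.79 to -1.26 over 15 alternatives. PPP1R9B, the actin-binding scaffold spinophilin, fell from 59.4, 58.1 and 58.5 to 30.3, 27.3 and 28.3 FPKM (-1.01 ± 0.08 SE, limma adjusted p = 1.70e-07). PPP1R18, an actin-associated PP1 subunit, fell from 61.2 ± 1.80 to 35.3 ± 3.86 FPKM (SD, n = 3; -0.78). PPP1R3E, which targets PP1 to glycogen, fell by 0.55 on the log2 scale. GENCODE release 29 names 3 pseudogenes after PPP1R14B and 6 after PPP1R2, and reads that such copies share could be split or lost in the counting.

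PPP1R16A and PPP1R16B, related genes of the myosin phosphatase targeting family, went in opposite directions. PPP1R16B rose from 31.7, 30.4 and 32.5 to 77.7, 56.7 and 77.0 FPKM (1.12 ± 0.12 SE, limma adjusted p = 2.18e-06), with 1.27 when AI-10-49 replicate 2 was left out. PPP1R16A fell from 16.5, 18.6 and 17 to 10.6, 10.3 and 8.03 FPKM (-0.79 ± 0.09 SE, limma adjusted p = 3.95e-06), although 52.6% of its exon bases lie under a gene on the opposite strand. The ratio of PPP1R16B to PPP1R16A within a library was 1.92, 1.64 and 1.92 with DMSO and 7.32, 5.50 and 9.59 with AI-10-49. PPP1R12A, the main myosin phosphatase targeting subunit, rose by 0.57.

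PPP1R2, a PP1 inhibitor protein, rose from 12.5, 12.4 and 13.0 to 25.0, 24.0 and 27.0 FPKM (0.95 ± 0.07 SE, limma adjusted p = 3.70e-08). PPP1R10, also called PNUTS, directs PP1 to RNA polymerase II and rose from 24.5, 25.7 and 23.6 to 50.2, 40.3 and 47.7 FPKM (0.87 ± 0.09 SE, limma adjusted p = 1.41e-06). Every treated library of both genes lay above every control. PPP1R13B, a p53-binding protein of the ASPP family, rose from 2.11 ± 0.307 to 4.18 ± 0.486 FPKM (SD, n = 3; 0.74). PPP1R15B, which brings PP1 to the translation factor eIF2α, rose only by 0.27. PPP1R21 rose by 0.40.

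Some PP1 rows rest on thin ground. PPP1R32 (0.79) and PPP1R3F (0.44), at 0.494 and 0.476 FPKM with DMSO, gave 1.52 and 0.96 with a pseudocount of 0.1. PPP1R3F was under the minimum, and so untested, without AI-10-49 replicate 3. PPP1R32 shares 26.1% of its exon bases with a protein-coding gene on the same strand. PPP1R35, a centrosomal protein gene, rose by 0.31 (limma adjusted p = 0.0284) with overlapping groups, and the call was lost in 5 of 15 alternatives. These were limma without the trend and leaving out DMSO replicate 1, DMSO replicate 2, AI-10-49 replicate 1 or AI-10-49 replicate 3 (limma adjusted p up to 0.145 and a value down to 0.19). The value was 0.46 without AI-10-49 replicate 2, and 0.54 when quantile normalization was added to that. PPP1R3B was at 1.5, 1.57 and 1.42 FPKM with DMSO and 1.88, 2.2 and 1.66 FPKM with AI-10-49, a log2 fold change of 0.22 that did not pass (limma adjusted p = 0.0539). It passed without AI-10-49 replicate 3 (limma adjusted p = 0.0362), with no filter (0.0460) and without the trend (0.0320), and its value ran from 0.12 to 0.33. PPP1R3G, untested, averaged 0.388 FPKM with DMSO and 0.917 FPKM with AI-10-49.

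PP4 subunits were the last group. PPP4R1 fell from 23.9, 24.7 and 24.8 to 18.6, 19.1 and 18.7 FPKM (-0.36 ± 0.06 SE, limma adjusted p = 1.04e-04), while the related pseudogene PPP4R1L rose from 0.931, 0.856 and 1.02 to 2.43, 2.83 and 2.47 FPKM (0.89 ± 0.10 SE, 1.37 with a pseudocount of 0.1). Reads of such related sequences may be divided between the rows. PPP4R2 read 51.2, 48.4 and 54.3 FPKM with DMSO and 75.8, 53.6 and 80.2 FPKM with AI-10-49, with replicate 2 inside the control range (0.42 ± 0.15 SE, limma adjusted p = 0.0158). Leaving out DMSO replicate 2, AI-10-49 replicate 1 or AI-10-49 replicate 3 ended the call (limma adjusted p = 0.0658, 0.0596 and 0.0643). The value was 0.60 without AI-10-49 replicate 2 and 0.72 under quantile normalization.

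Genes that act around these enzymes were counted from lists that were set with earlier results of these data known. Over all tested rows 95.3% were called, 46.2% higher and 49.1% lower, with a median of -0.28, so the number of calls is no result about the lists. Of 30 genes of the MAP kinase pathway 9 had a row, 6 higher and 3 lower, with a median log2 fold change of 0.47. The kinases BRAF (1.13), MAP2K5 (1.02), MAP2K3 (0.74) and MAPK8 (0.37, a JNK) and the scaffold KSR1 (0.91) rose. MAPK3 (-0.41), which encodes an ERK, and MAPK11 (-0.31), a p38, fell. Of the inhibitors of ERK signalling in the list, SPRED2 rose (0.47) and SPRY4 fell (-0.49). SPRY4, at means of 1.43 and 0.731 FPKM, reached the minimum only with DMSO and could only be called as lower. Of 29 modulators of PP1 and PP2A 14 had a row, with 6 higher, 7 lower and a median of -0.40. Inhibitors of PP2A went both ways. SET (-0.65, or -0.37 without AI-10-49 replicate 2), ANP32A (-0.60, or -0.33), FAM122B (-1.06), BOD1 (-0.52) and ARPP19 (-0.36) fell. FAM122A (0.35) and TIPRL (0.38, or 0.55) rose. ANP32B (-0.44) did not pass (limma adjusted p = 0.122), and its value was -0.15 without AI-10-49 replicate 2 (limma adjusted p = 0.0557). AKAP1 (-1.79), a PP1-binding anchor protein, fell. IGBP1 (0.52, or 0.72 without AI-10-49 replicate 2), which binds free PP2A catalytic subunits, rose.

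Other protein phosphatases outside the rule gave 8 higher, 9 lower and 3 not past the threshold among the 20 of 52 with a row. Their median of -0.28 equals that over all tested rows, and 85.0% were called, against 95.3% of all tested rows. The 3 that did not pass, SSU72, ACP1 and TNS1, passed without AI-10-49 replicate 2 (limma adjusted p = 0.0182, 2.35e-06 and 0.0331). ACP1 then went from 0.36 to 0.66, SSU72 from -0.39 to -0.17 and TNS1 from -0.18 to -0.24. CDC25A, which activates cyclin-dependent kinases, fell from 21.6 to 4.75 FPKM in the mean (-1.97). CDC25B (-0.61) fell and CDC25C (0.69) rose.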

How the data were processed

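Per the labels, RNA of ME-1 cells was sequenced in 3 DMSO and 3 AI-10-49 libraries. The authors deposited 1 table of FPKM with 6 columns, 1 per library. Bowtie2 2.1.0, Cufflinks 2.2.0 and Cuffdiff are listed with the build hg19 per the submitters' processing notes. The sources used here do not say how the rows were selected. Count models do not apply to FPKM. Ratios of low values between DMSO libraries lay on ratios of small whole numbers (within 0.5%) in 31.9% of 160 cases against 28.7% in abundant rows, so reads were not recovered. From these values log2(FPKM + 1) was analysed with limma 3.58.1 in R 4.3.3 (linear model, mean-variance trend, two-sided), over rows whose mean reached 1 FPKM in either group, which left out 109 rows. The fit was tested on simulated data with the same spread for every gene, few changed genes and no library that read low. That test therefore does not cover a table in which nearly every row differs, or a library such as AI-10-49 replicate 2. Summaries and plots used Python 3.11.15, pandas 2.3.3, NumPy 2.4.6, SciPy 1.17.1 and Matplotlib 3.10.9.

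Members and lists were chosen with earlier results of these data known. Values per library are given for up to 5 members of largest change in each role group among called rows without overlap, for members that did not pass and for the 3 most abundant; values of DUSP5, PPP1R13B (means), PPP1R16A, PPP1R18 (means), PPP1R32, PPP1R3F and PPP1R3G (means), PPP2CB, PPP4R2 and PTPRH were added after they were seen, and the remaining members are given by their log2 fold change only. Of the 66 members, 26 share exon bases with another gene in GENCODE release 29 (GRCh38), which was used for neighbours only. A planned search of protein sequences was not made. No promoter was matched for DUSP5, DUSP12, DUSP27, PPP1R16A, PPP1R16B, PPP1R21, PPP1R3B, PPP1R3E, PPP2CB, PPP2R2A, PPP3CA, PPP3CB, PPP4R1L, PPP5C and PTP4A3.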

Additional observations from a re-analysis of the deposited data

How the results depend on the processing

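Settings varied were the pseudocount (0.1, 0.5), the filter (none, 5 FPKM), the scaling (median, quantile, quantile without AI-10-49 replicate 2), the replicate block, the limma trend, the threshold (0.01, or a size limit) and the libraries, each left out once. No tested member changed sign in any of them. Over the 15 settings that keep the 0.05 threshold, 951 values were obtained for the 64 tested members. Of these, 932 kept their side of the threshold, 16 lost the call (all in PPP1R35, PPP2CB and PPP4R2) and 3 gained it (PPP1R3B). PTPRH and PPP1R3G entered the test and were called with no filter, as was PTPRH without AI-10-49 replicate 3 and PPP1R3G without AI-10-49 replicate 1. PPP1R3F left the test without AI-10-49 replicate 3, and 8 members left it at 5 FPKM. A threshold of 0.01 left 40 higher and 20 lower. Members called higher numbered 40 to 43 and lower 20 with single libraries left out, and 36 to 46 and 19 to 20 under the other settings except the size limit. Asking for a log2 fold change of 1 or more in size left 7 higher and 6 lower, by construction: 2 and 3 serine/threonine rows, 2 and 0 tyrosine rows, and 3 and 3 dual-specificity rows. The median of dual-specificity rows, 0.37, was 0.40 with a pseudocount of 0.1, 0.33 with the filter at 5 FPKM (fewer rows), 0.34 under quantile normalization without AI-10-49 replicate 2, and 0.34 to 0.41 with single libraries left out; the cause was not tested. Quantile normalization moved the median of all rows from -0.28 to -0.06 and gave 0.35 for serine/threonine, 0.39 for tyrosine and 0.35 for dual-specificity rows.

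The replicate block gave 43 members higher and 20 lower, as without it, and changed no member's call. Deviations of same-numbered libraries correlated across rows with r of -0.15, 0.147 and 0.247, so the numbers were not treated as pairs. Depth is unknown, and the precision of rows under 2 FPKM rests on 3 libraries a group.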

Other observations

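Some rows touch the same families and were outside the rule. PPP1R15A, the stress-induced partner of PPP1R15B that also directs PP1 to eIF2α, stood at 35.1, 36.6 and 37.0 FPKM with DMSO and at 135, 78.8 and 137 FPKM with AI-10-49 (log2 fold change 1.62, or 1.88 without AI-10-49 replicate 2). A row that names GEMIN7 and PPP1R37 together gave -0.44 and one that names PPP6R1 and TMEM86B gave -0.71 (-0.54 without AI-10-49 replicate 2), and these values cannot be assigned to either gene.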
